A study of Mus musculus with 12 samples.

Results

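Transcripts were counted in the ventricles of 4 mice with transverse aortic constriction that carried the BacNav vector (TAC-BacNav) and 4 sham-operated mice (Sham-NT), 8 of the 12 libraries of the study. The members of the comparison were the libraries whose titles name those groups. All mice were wild-type C57Bl/6J. Sham-NT mice received PBS and no vector. TAC-BacNav mice received AAV9-MHCK7-BacNav-mScarlet, in which a promoter active in heart and skeletal muscle drives an engineered bacterial voltage-gated sodium channel, BacNav, with the red fluorescent protein mScarlet. The third group, TAC-mScarlet, had the same constriction and received AAV9-MHCK7-mScarlet, and its 4 libraries entered the same model and are given beside the comparison. Constriction, vector and BacNav all separate TAC-BacNav from Sham-NT, so their parts in a difference cannot be told apart from these 8 libraries. Age, sex and the time between surgery and collection were not given in the sources used here.

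Narrowing of the aortic arch makes the left ventricle pump against a raised load. Muscle cells answer by growing and by switching on genes of the fetal heart and of stretched muscle, fibroblasts become activated and lay down matrix, and transcripts for mitochondrial respiration and fat oxidation commonly decline. The comparison with sham asks how much of that program was present in ventricles that carried BacNav.

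Sham-NT libraries held 5.36 to 7.84 M counts (M, mega) and TAC-BacNav libraries 7.36 to 11.5 M. Levels are given as CPM, counts per mega-count after scaling for library composition, and differences as log2 fold changes with their standard errors (SE). Defining transcripts of ventricular muscle were abundant in every library, with a summed level of 105824 to 113583 CPM over 14 markers in Sham-NT and 81826 to 107098 CPM in TAC-BacNav. The libraries also fell apart by immediate early genes, which switch on within minutes of stress or handling. Fos stood at 54.9 to 80.5 CPM in Sham-NT 1 and 2 but at 1.60 and 5.56 CPM in Sham-NT 4 and 3, and at 158 and 225 CPM in TAC-BacNav 1 and 2 but at 3.87 and 5.26 CPM in TAC-BacNav 3 and 4. This split crosses both groups, and some values within each side of it are given below. In bulk tissue, fewer cells of a type and less RNA per cell cannot be told apart.

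Of 13910 genes tested, 2 passed an adjusted p of 0.05 in TAC-BacNav against Sham-NT (edgeR quasi-likelihood test, Benjamini-Hochberg), which is 0.0144% of the genes. Both rose. Among them was Ankrd1, a cardiac ankyrin repeat protein of stretched muscle that shuttles between the sarcomere and the nucleus. None passed in the direction of lower expression, where 738 genes had an unadjusted p below 0.05 (5.31%), and DESeq2 called 12. On the higher side, 806 genes (5.79%) had an unadjusted p below 0.05. The 4 libraries of each group did not overlap for 429 genes that were higher (3.08%) and 329 that were lower (2.37%), and 51.1% of genes had a log2 fold change above 0. With scaling by library size alone the same counts were 1475 higher and 355 lower, and the median log2 fold change of all genes was 0.11 in place of 0.01. In TAC-mScarlet against the same 4 Sham-NT libraries, 719 genes passed (5.17%), 369 higher (2.65%) and 350 lower (2.52%). The direct test between the 2 constricted groups called 0.0% of the genes by edgeR, with 467 at an unadjusted p below 0.05 (3.36%) and 5 called by DESeq2. A gene that passed against sham in one constricted group and not in the other was thus not shown to differ between them.

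Ankrd1 (ENSMUSG00000024803.9, chr19:36111961-36120099 on the minus strand of GRCm38) stood at 825, 655, 961 and 914 CPM in Sham-NT mice 1 to 4 and at 1756, 2426, 3328 and 3303 CPM in TAC-BacNav mice 1 to 4. Every TAC-BacNav mouse lay above every sham mouse, with the smallest value in TAC-BacNav 1. The log2 fold change was 1.69 ± 0.24 (SE; 95% interval 1.19 to 2.19; n = 4 and 4), with an adjusted p of 0.0401 in the edgeR test. TAC-mScarlet mice held 4282, 3971, 7349 and 6549.5 CPM, above every TAC-BacNav mouse, and a log2 fold change of 2.72 against sham. The interval of TAC-BacNav minus TAC-mScarlet was -1.53 to -0.54, but that difference had an adjusted p of 0.855 in the edgeR test and did not pass. Ankrd1 shares no annotated exon with another gene.

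Leaving out single libraries ended the call of Ankrd1 more often than not. Over the 8 edgeR fits without 1 library of the comparison, the Ankrd1 log2 fold change stayed between 1.57 and 1.85 while its adjusted p ran from 0.00646 to 0.227, and it passed in 1 of them, without TAC-BacNav 1. In these fits the share of all genes higher at an unadjusted p below 0.05 ran from 3.20% (without TAC-BacNav 4) to 8.50% (without Sham-NT 3). It was 5.01%, 3.79% and 4.28% without Sham-NT 1, 2 or 4, in that order. Without TAC-BacNav 1, 2 or 3 it was 6.86%, 5.01% and 5.66%. The share lower ran from 2.66% to 8.96% in the same fits. That share was 4.01%, 3.04% and 3.61% without Sham-NT 1, 2 or 4. Without TAC-BacNav 1, 2 or 3 it was 6.57%, 4.59% and 5.98%. List counts given below for fits without 1 library stand beside these shares, and a moved count alone is not a trait of its list.

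The stretch of 250 bases before the first RefSeq transcription start (GRCm38.p6) is shown for Acta1, Myh7 and Mybpc2, members of the fetal and stretch group described below, because each holds a motif searched and no base that GENCODE vM21 places in an exon. Capitals mark the motifs searched on both strands: the M-CAT element with the letters CATTCC, a site of TEAD factors, the GATA factor motif with the letters AGATAA, and the CArG box of serum response factor.
Acta1, chr8:123894776-123895025, minus strand: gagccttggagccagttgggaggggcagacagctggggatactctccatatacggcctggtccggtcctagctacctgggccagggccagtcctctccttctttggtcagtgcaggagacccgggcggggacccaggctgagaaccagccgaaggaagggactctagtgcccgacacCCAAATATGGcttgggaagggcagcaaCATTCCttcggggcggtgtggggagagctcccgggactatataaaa
Myh7, chr14:54994627-54994876, minus strand: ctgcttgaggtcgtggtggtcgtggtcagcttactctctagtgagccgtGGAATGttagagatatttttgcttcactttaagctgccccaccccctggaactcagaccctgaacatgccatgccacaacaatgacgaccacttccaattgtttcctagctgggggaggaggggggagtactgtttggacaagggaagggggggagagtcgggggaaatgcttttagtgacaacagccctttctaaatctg
Mybpc2, chr7:44524670-44524919, minus strand: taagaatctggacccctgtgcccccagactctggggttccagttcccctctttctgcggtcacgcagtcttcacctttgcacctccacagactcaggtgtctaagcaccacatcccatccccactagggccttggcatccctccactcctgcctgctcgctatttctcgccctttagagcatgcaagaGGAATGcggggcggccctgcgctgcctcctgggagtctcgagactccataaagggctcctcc
In Acta1 a CArG box lies 64 to 73 and an M-CAT 41 to 46 bases before the start. The Myh7 stretch holds an M-CAT 196 to 201 bases before the start, and the Mybpc2 stretch one 57 to 62 bases before it. The Ankrd1 stretch has 2 M-CAT and 1 GATA matches, and the Nppb stretch 1 of each, but GENCODE places all 250 bases of the first and 112 bases of the second in an exon, so they are not printed. Among 27025 genes with a RefSeq stretch of this length, 12.6% held an M-CAT, 10.3% a GATA and 1.4% a CArG box, against 5, 4 and 3 of the 18 stretches found for the fetal and hypertrophic list. The matches are a description of these letters only.

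**Figure D1:**
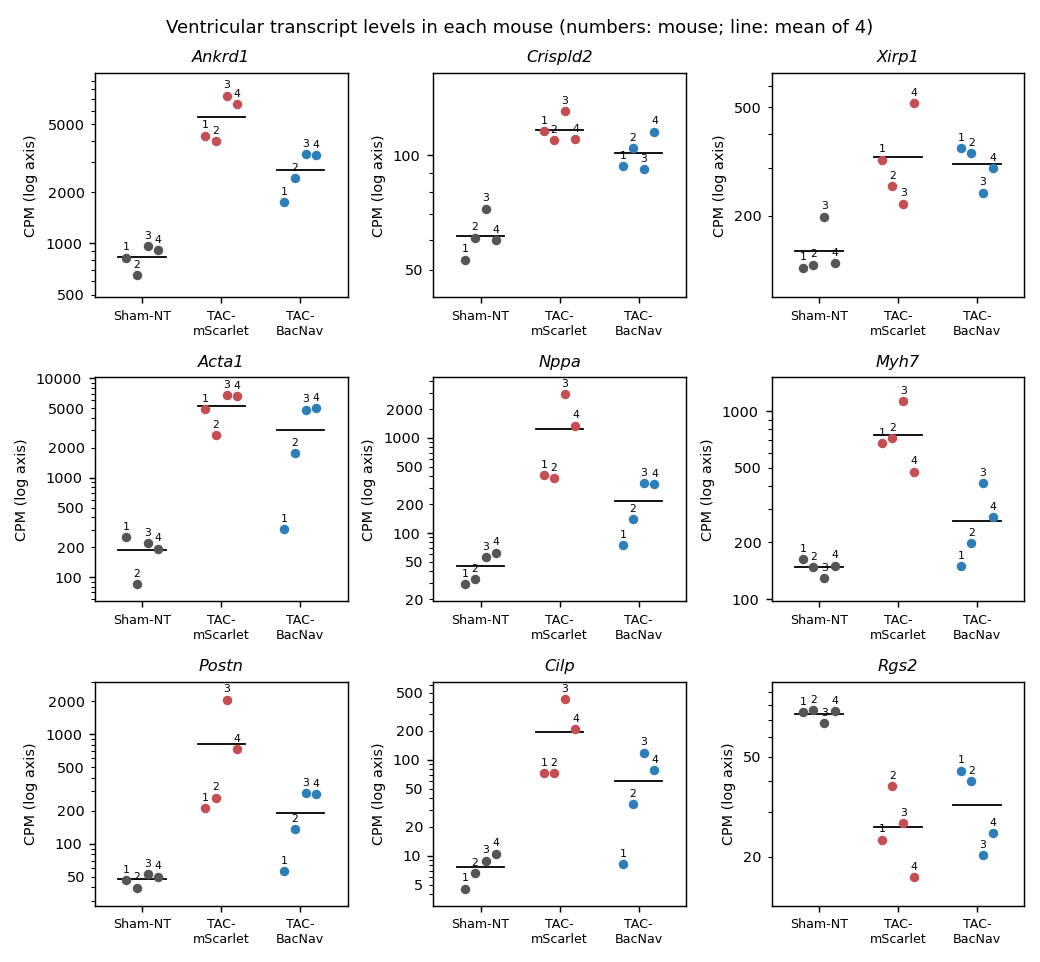
Level of 9 genes in each mouse, in CPM on a log axis, by group; numbers mark the mouse and lines the mean of 4. Ankrd1, Crispld2 and Xirp1 are above every sham mouse in all 4 TAC-BacNav mice, whereas TAC-BacNav 1 sits close to sham for Acta1 (305 CPM), Myh7 (149 CPM), Postn (56.2 CPM) and Cilp (8.14 CPM).

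Fetal and stretch genes were mostly higher in TAC-BacNav, with 17 of 19 above 0. Of 21 genes on that list 19 were tested, 1 passed (Ankrd1), and 11 had an unadjusted p below 0.05, all with higher levels in TAC-BacNav. DESeq2 called Ankrd1, Acta1, Xirp1 and Mybpc2. The median log2 fold change of the list was 0.80, against 0.01 for all genes, and it was 1.57 in TAC-mScarlet, which shares the sham libraries. Without any 1 of the 8 libraries, 10 to 13 members had an unadjusted p below 0.05.

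Within that list the mice differed. Acta1, skeletal muscle actin, which the fetal heart uses, stood at 305, 1757, 4863 and 5050.3 CPM in TAC-BacNav mice 1 to 4, against 251, 84.7, 221 and 193 CPM in sham. TAC-BacNav 1 was thus close to the highest sham mouse while mice 3 and 4 lay within the range of TAC-mScarlet mice (4916, 2709, 6847 and 6673 CPM). Over the 4 mice the log2 fold change was 4.00 ± 0.80, with an adjusted p of 0.344 in the edgeR test. Near-identical actin genes make its counts less certain.

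Nppa, atrial natriuretic peptide, a hormone that lowers blood pressure and is a classic marker of ventricular stress, stood at 73.9, 141, 333 and 325 CPM against 28.7, 32.8, 55.9 and 62.2 CPM in sham. All 4 TAC-BacNav mice were above sham, and all 4 were below every TAC-mScarlet mouse (406, 376, 2871 and 1348 CPM). Against sham the log2 fold change was 2.27 ± 0.75 (adjusted p 0.372, edgeR), and its counts may include those of Gm13054 on the opposite strand. Nppb, B-type natriuretic peptide, stood at 717, 1242, 1011 and 655 CPM against 575, 249.7, 219 and 234 CPM in sham. Here mouse 2, not 3 or 4, was the highest, and the highest sham mouse stood far from the other 3. Its log2 fold change was 1.50 ± 0.40 (adjusted p 0.367, edgeR).

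Myh7, the slow beta myosin heavy chain, stood at 149, 199, 415 and 272 CPM against 164, 148, 129.8 and 151 CPM in sham. The groups overlapped through TAC-BacNav 1, and every TAC-BacNav mouse lay below every TAC-mScarlet mouse (673, 715, 1129 and 476 CPM). Its log2 fold change was 0.80 ± 0.29 against sham and 2.34 for TAC-mScarlet against sham, and the direct difference was -1.53 (-2.17 to -0.90) with an adjusted p of 0.78 in the edgeR test. Myh6, the fast alpha chain of the adult mouse ventricle, had a log2 fold change of -0.24 (-0.66 to 0.19) in TAC-BacNav and -0.74 in TAC-mScarlet. Antisense transcripts overlap exons of both myosin genes, and the strand setting of the counting is not given. The same holds for Mybpc2, Stc1, Tiparp, Egflam, Atp2a2, Pln, Slc8a1, Ndufb2, Esrra and Cacnb2, while Scd2 and Tnni3 share exons with a gene on their own strand.

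Xirp1, an actin-binding protein of the intercalated disc, stood at 355, 339, 243 and 299 CPM against 129, 132, 199 and 134 CPM in sham, a log2 fold change of 1.06 ± 0.23, next to 1.15 in TAC-mScarlet. For this gene TAC-BacNav 1 was the highest mouse of its group, and the groups did not overlap. Mybpc2, the fast skeletal myosin-binding protein C, stood at 15.9, 20.5, 31.2 and 30.8 CPM against 14.1, 12.3, 12.2 and 11.9 CPM, with TAC-BacNav 1 again nearest to sham. Rcan1, a calcineurin inhibitor that calcineurin itself switches on, had a log2 fold change of 0.68 (-0.03 to 1.38) in TAC-BacNav and 1.63 in TAC-mScarlet, and did not pass.

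By the fixed rule, the 15 genes per direction with the smallest p among those whose groups did not overlap were named, and apart from the 2 called genes none of them passed by edgeR. Of these, 29 are described, and all 29 had the same sign in TAC-mScarlet against the shared sham libraries. The genes were picked for their distance from those same sham mice, which favours a shared sign in advance. No conclusion is drawn from the shared signs. For 25 of the 29 the 95% interval of TAC-BacNav minus TAC-mScarlet included 0, and the 4 others were Ankrd1, Mybpc2, Egflam and Etfbkmt, each with a smaller difference from sham in TAC-BacNav. An interval that includes 0 does not show that the constricted groups were alike.

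Crispld2, a secreted protein with lipopolysaccharide-binding domains, had the smallest p among the genes that did not pass. It stood at 93.7, 105, 92.1 and 115 CPM in TAC-BacNav, 53.1, 60.7, 72.3 and 59.8 CPM in sham and 116, 109, 131 and 110.4 CPM in TAC-mScarlet. All 8 constricted mice lay above all 4 sham mice, which the naming rule required of the 4 TAC-BacNav mice. Crispld2 had a log2 fold change of 0.72 ± 0.12 in TAC-BacNav (adjusted p 0.0914, edgeR) and 0.92 in TAC-mScarlet, a direct difference of -0.20 (-0.45 to 0.05). It was called by DESeq2.

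For several of the 15 higher genes the point values against sham were nearly the same in both constricted groups. The genes were picked on TAC-BacNav against sham alone, which favours large values in TAC-BacNav but not in TAC-mScarlet. No conclusion is drawn from how close the values were. Ier5, an immediate early response gene, stood at 158, 117, 104 and 67.4 CPM against 66, 61.3, 47.8 and 50 CPM in sham, and differed between the constricted groups by 0.06 (-0.35 to 0.48) on the log2 scale. Its high values in TAC-BacNav 1 and 2 go with the immediate early split. Scd2, a stearoyl-CoA desaturase that makes monounsaturated fat, stood at 27.7, 33.7, 21.6 and 29.9 CPM against 13.7, 15, 21.4 and 15.1 CPM, and differed between the constricted groups by 0.01 (-0.34 to 0.35). Abat, which breaks down GABA, stood at 19.1, 23.7, 28 and 38 CPM against 11.1, 15, 17.9 and 12.8 CPM, with a direct difference of -0.05 (-0.45 to 0.36). Log2 fold changes against sham in TAC-BacNav and TAC-mScarlet were 1.30 and 1.13 for Stc1, the secreted glycoprotein stanniocalcin 1, and 0.79 and 0.61 for Tnfrsf1b, the second receptor of tumour necrosis factor. They were 0.75 and 0.83 for Tiparp, a target of the aryl hydrocarbon receptor.

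Growth-factor and adhesion receptors were also among them. Itgb8, the integrin subunit that releases TGF-beta from its latent form, stood at 3.37, 2.78, 2.27 and 4.03 CPM against 0.991, 0.976, 0.776 and 0.961 CPM in sham, a low level with a log2 fold change of 1.76 ± 0.33 and 2.29 in TAC-mScarlet. Met, the receptor of hepatocyte growth factor, stood at 4.19, 3.38, 6 and 5.51 CPM against 1.98, 1.56, 2.33 and 1.92 CPM, a log2 fold change of 1.27 ± 0.27 next to 1.70. Rasl11b, a small GTPase of the Ras family, had 1.13 next to 1.49. Groups did not overlap for any of the 3, which the naming rule required.

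Among the 15 lower genes, Rgs2, a regulator that shortens signalling through Gq-coupled receptors such as those of angiotensin and endothelin, stood at 43.9, 39.8, 20.3 and 24.8 CPM against 75.1, 76.5, 67.8 and 75.8 CPM in sham. The sham mice lay within 9 CPM of each other and every TAC-BacNav mouse was below 44 CPM. Rgs2 had a log2 fold change of -1.20 ± 0.25 in TAC-BacNav (adjusted p 0.319, edgeR) and -1.48 in TAC-mScarlet (23.4, 38.2, 27.2 and 16.6 CPM), a direct difference of 0.29 (-0.24 to 0.82). DESeq2 called it.

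Etfbkmt, a methyltransferase that modifies the beta subunit of the electron transfer flavoprotein of fat oxidation, stood at 23.5, 20.5, 21.7 and 23.8 CPM against 29.7, 40.2, 36.2 and 37.5 CPM, a log2 fold change of -0.68 ± 0.14 next to -1.03 in TAC-mScarlet. Egflam, pikachurin, a matrix protein that binds dystroglycan, stood at 24.9, 15.7, 16.5 and 14.9 CPM against 29.1, 39.4, 27.2 and 36.2 CPM, a log2 fold change of -0.87 ± 0.19 next to -1.37. TAC-BacNav 1 was the mouse nearest to sham for Egflam. Tnnt1, slow skeletal troponin T, stood at 21.2, 15.6, 17.7 and 14.6 CPM against 25.4, 28.7, 24.7 and 29.5 CPM, a log2 fold change of -0.65 ± 0.15, next to -0.63 in TAC-mScarlet. The remaining lower genes ranged from -1.95 for Stmn4, a stathmin that binds tubulin, and -1.71 for Sbk2, a kinase gene, to -0.43 for Maf1, a repressor of RNA polymerase III. Stmn4 and Sbk2 were both low in expression, at 1.37 to 2.72 CPM and 4.36 to 7.37 CPM in sham.

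**Figure D2:**
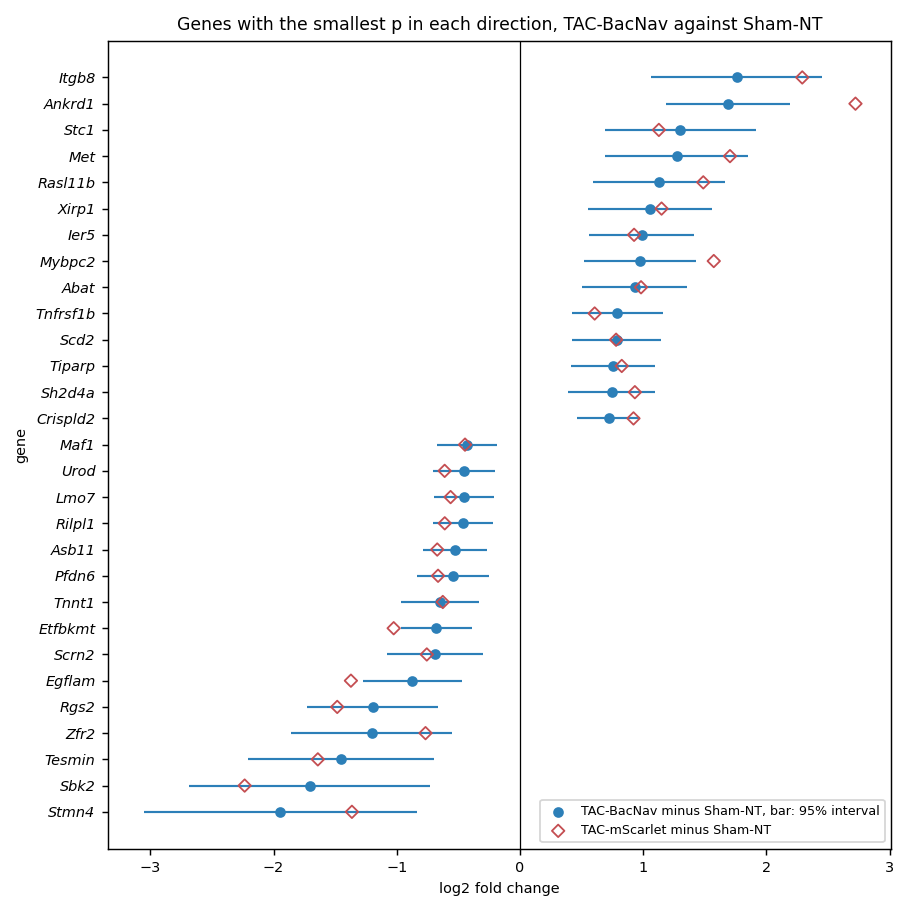
Log2 fold change against Sham-NT of 29 genes with the smallest p, 14 higher and 15 lower, with 95% intervals for TAC-BacNav (filled points and bars) and the value for TAC-mScarlet (open diamonds). The diamonds lie on the same side of 0 as the points for all 29 genes, and for Ankrd1 the diamond (2.72) lies outside the interval (1.19 to 2.19). Both groups are set against the sham mice by which the genes were picked, which favours the same side.

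Matrix and fibroblast genes made up the next group. Of 36 collagen and matrix genes tested, 35 had a log2 fold change above 0, 11 had an unadjusted p below 0.05, all of them higher, and 0 passed by edgeR. Their median was 0.78 in TAC-BacNav and 1.41 in TAC-mScarlet. Of 15 activated fibroblast genes, 8 had an unadjusted p below 0.05, all higher, with medians of 1.11 and 2.46 in the 2 constricted groups. The lists share 7 genes, among them Postn, Cilp and Col8a1. DESeq2 called 0 of either list over all libraries.

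Postn, periostin, a matrix protein of activated fibroblasts, stood at 56.2, 135, 290.2 and 281 CPM in TAC-BacNav mice 1 to 4 against 46.8, 39.6, 52.4 and 50 CPM in sham. Mouse 1 lay just above the highest sham mouse, mouse 2 between, and mice 3 and 4 far above. The log2 fold change was 2.01 ± 0.77 (adjusted p 0.409, edgeR), next to 4.12 in TAC-mScarlet (213, 263, 2067 and 736 CPM). Cilp, a cartilage intermediate layer protein of matrix-producing fibroblasts, stood at 8.14, 34.9, 119 and 78.7 CPM against 4.56, 6.64, 8.93 and 10.6 CPM, where mouse 1 fell within the sham range. Its log2 fold change was 2.95 ± 0.91 next to 4.66.

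Col1a1, the main chain of fibrillar type I collagen, stood at 60.7, 120.3, 129.9 and 129 CPM against 69.2, 56.6, 60.8 and 58.5 CPM. TAC-BacNav 1 was within the sham range, and the other 3 mice lay between 120 and 130 CPM. Its log2 fold change was 0.84 ± 0.33 (adjusted p 0.406, edgeR), next to 1.52 in TAC-mScarlet. Col8a1, a short-chain collagen, stood at 46.9, 73.9, 127 and 174 CPM against 34.3, 34, 41.4 and 34.9 CPM, a log2 fold change of 1.54 ± 0.49 next to 2.63. Lum, lumican, which spaces collagen fibrils, was tighter, at 96.3, 102, 122 and 144 CPM against 73, 67, 66.5 and 61.8 CPM, a log2 fold change of 0.79 ± 0.24 next to 1.16. Col14a1, a collagen that associates with fibrils, had 1.05 ± 0.32 next to 1.50. The groups did not overlap for Col8a1, Lum or Col14a1, including TAC-BacNav 1, and none of these genes passed.

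Single libraries moved these counts. They also moved the share of all genes higher at an unadjusted p below 0.05, which was 6.86% without TAC-BacNav 1, 8.50% without Sham-NT 3 and 3.20% without TAC-BacNav 4. Among the 8 fits without 1 library, collagen and matrix genes at an unadjusted p below 0.05 numbered 20 without TAC-BacNav 1 and 5 to 9 otherwise, and fell under 11 by more than 1.5 times without Sham-NT 2 (7), Sham-NT 3 (5), TAC-BacNav 3 (6) and TAC-BacNav 4 (6). For activated fibroblast genes the count was 9 without TAC-BacNav 1, 7 without TAC-BacNav 2, and 2 to 5 without any other mouse. Their medians were 0.64 to 0.86 and 0.99 to 1.51. Markers of resting fibroblasts summed to 3337 to 3950.0 CPM over 15 genes in TAC-BacNav and 2767 to 3539 CPM in Sham-NT, and their part in these differences was not tested.

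TGF-beta is released from the matrix by load and drives fibroblasts toward matrix production, and CCN proteins are secreted modulators that act beside it. Of 25 such genes tested, 10 had an unadjusted p below 0.05 with higher levels and 1 with a lower level, and their median was 0.38 next to 0.61 in TAC-mScarlet. The 10 were 5 without any 1 of Sham-NT 2, TAC-BacNav 3 and TAC-BacNav 4, and 6 without Sham-NT 3 or Sham-NT 4. Among ligands, Inhba, the activin A subunit, stood at 3.72, 3.74, 6.4 and 4.19 CPM against 1.59, 2.93, 1.68 and 1.28 CPM in sham, a log2 fold change of 1.28 ± 0.31 next to 1.85. Among inhibitors, Smad7, which blocks the receptors and is itself induced by TGF-beta, stood at 19.2, 26.4, 21.5 and 26.9 CPM against 13.7, 11.7, 18 and 15.9 CPM, a log2 fold change of 0.66 ± 0.18 next to 0.61. Groups overlapped for neither. Ccn2, connective tissue growth factor, stood at 151, 219.9, 299.9 and 240.2 CPM against 165, 143, 102 and 91.7 CPM with overlap, a log2 fold change of 0.86 ± 0.38 next to 2.14 in TAC-mScarlet, and antisense Gm15270 shares its exons. The matrix processing list, 27 tested genes of proteases, their inhibitors and crosslinking, had a median of 0.36 with 4 at an unadjusted p below 0.05, all higher. The 4 were 1 without Sham-NT 4 and 2 without Sham-NT 2, Sham-NT 3 or TAC-BacNav 2.

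**Figure D3:**
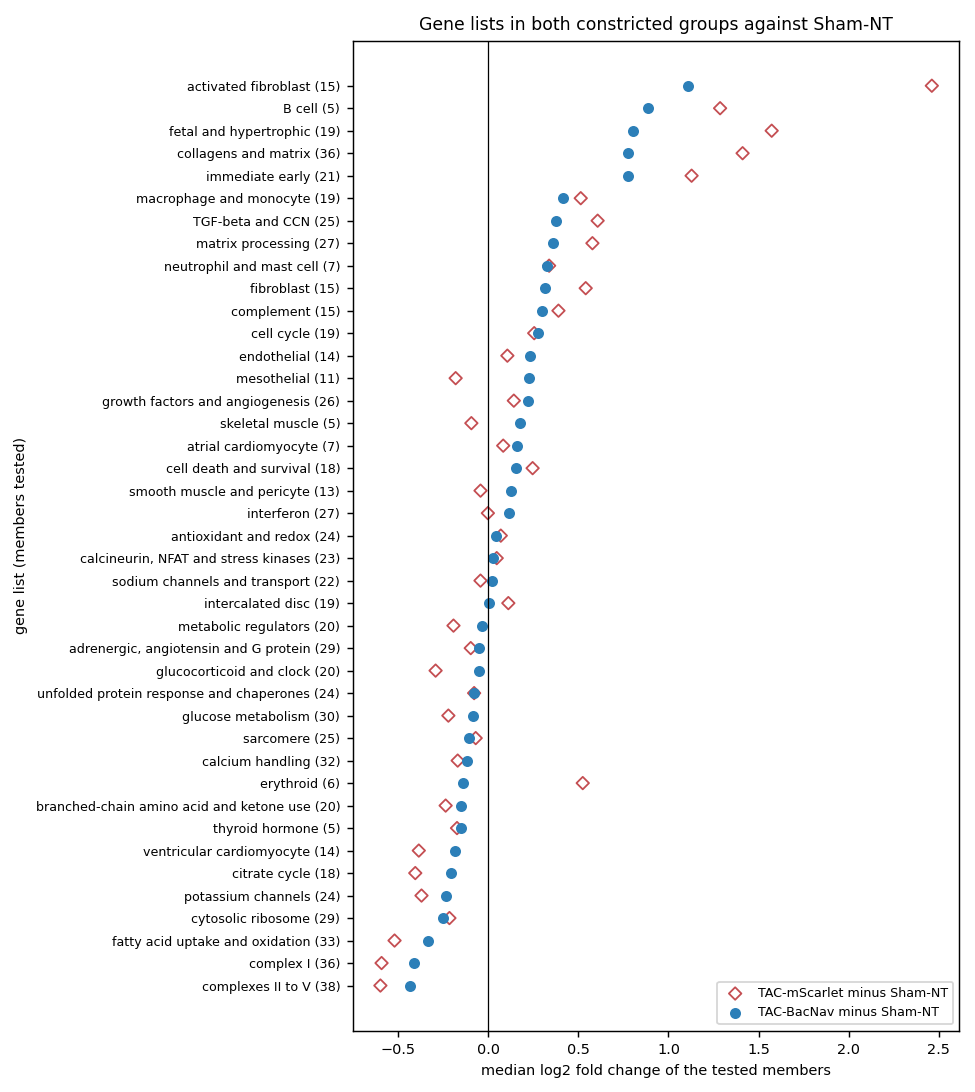
Median log2 fold change against Sham-NT of the tested members of each list with at least 5, for TAC-BacNav (filled points) and TAC-mScarlet (open diamonds), with the number tested in brackets. Activated fibroblast genes are highest in TAC-BacNav (1.11) and respiratory complexes II to V lowest (-0.43); both groups share the 4 sham libraries.

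Respiratory chain genes lay on the lower side. Complex I takes electrons from NADH, complexes II to IV pass them to oxygen and complex V makes ATP. All 36 complex I genes tested had a log2 fold change below 0, from -0.78 to -0.07 with a median of -0.41, and 28 had an unadjusted p below 0.05. For complexes II to V the median was -0.43 and 28 of 38 had an unadjusted p below 0.05, all lower. No gene of either list passed by edgeR over all libraries or by DESeq2. The medians in TAC-mScarlet were -0.59 and -0.60.

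Ndufv1, the subunit that binds NADH, stood at 816, 688, 658 and 564 CPM in TAC-BacNav against 920.1, 1037, 832 and 937 CPM in sham. No TAC-BacNav mouse reached the lowest sham mouse, and mouse 1 came nearest. Ndufv1 had a log2 fold change of -0.45 ± 0.14 (adjusted p 0.367, edgeR), next to -0.63 in TAC-mScarlet. Cyc1, cytochrome c1 of complex III, stood at 882, 779, 811 and 603 CPM against 1082, 1051, 922 and 1028 CPM, also without overlap, a log2 fold change of -0.41 ± 0.13 next to -0.61. Cox7a1, the heart and muscle form of a complex IV subunit, stood at 970.0, 794, 679 and 463 CPM against 1292, 1286, 757 and 1228 CPM, and overlapped through Sham-NT 3.

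Sham-NT 3 and TAC-BacNav 4 stood apart for these genes and for ribosomal protein genes together. Mean log2(CPM + 1) over complex I, relative to the sham mean, was -0.42 in Sham-NT 3 and 0.06 to 0.19 in the other sham mice, and -0.81 in TAC-BacNav 4 and -0.32 to -0.19 in the other 3. Over cytosolic ribosomal genes it was -0.58 in Sham-NT 3 and 0.12 to 0.26 in the others, and -0.53 in TAC-BacNav 4 and -0.14 to -0.08 in the others. Complex I genes at an unadjusted p below 0.05 numbered 28 without TAC-BacNav 2 and 31 without Sham-NT 3 or TAC-BacNav 1, but 21 without TAC-BacNav 3, 14 without Sham-NT 4, 10 without Sham-NT 1, 8 without Sham-NT 2 and 7 without TAC-BacNav 4. Those of complexes II to V ran from 10 without Sham-NT 2 and 11 without TAC-BacNav 4 to 34 without TAC-BacNav 1, with 13 without Sham-NT 1. Over all genes, the share lower at an unadjusted p below 0.05 was 8.96% without Sham-NT 3, 3.04% without Sham-NT 2 and 2.66% without TAC-BacNav 4. The complex I median stayed between -0.53 and -0.27 in these fits without 1 library. Without Sham-NT 3 and TAC-BacNav 4 together it was -0.40 with 29 genes at an unadjusted p below 0.05. Ribosomal genes had a median of -0.25, with 3 of 29 at an unadjusted p below 0.05 over all libraries, 18 without those 2 mice, 21 without Sham-NT 3, and 0 without Sham-NT 1, Sham-NT 2, Sham-NT 4, TAC-BacNav 1 or TAC-BacNav 4 and 1 without TAC-BacNav 2. The part of that shared shift in the respiratory chain values was not tested.

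Fat is the main fuel of the adult heart. Of 33 genes that take up or oxidise fatty acids, 31 had a log2 fold change below 0, 18 had an unadjusted p below 0.05, all lower, and the median was -0.33 next to -0.52 in TAC-mScarlet. Slc27a1, a fatty acid transporter of the plasma membrane, stood at 102, 96.1, 77.5 and 53.1 CPM against 159, 209.8, 112 and 139 CPM in sham, a log2 fold change of -0.91 ± 0.24 next to -1.11. Acaa2, the thiolase that completes each round of mitochondrial beta-oxidation, stood at 1065, 864, 671 and 595 CPM against 1304, 1631, 1142 and 1391 CPM, a log2 fold change of -0.77 ± 0.23 next to -1.17. Neither gene overlapped between the groups, and TAC-BacNav 4 was lowest for both. The 18 were 10 without Sham-NT 2 and 11 without TAC-BacNav 3 or TAC-BacNav 4.

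As a list, the regulators of these pathways had a smaller median, though not every member had a smaller value. Ppargc1a, the coactivator PGC-1 alpha that drives mitochondrial genes, stood at 101, 75.8, 99.9 and 151 CPM against 113, 98.4, 167 and 103 CPM, with full overlap and a log2 fold change of -0.17 (-0.67 to 0.32). It was -0.89 in TAC-mScarlet (71.2, 65.6, 42.4 and 81 CPM), and the direct difference of 0.72 (0.22 to 1.22) had an adjusted p of 0.9995 in the edgeR test. Esrra, the nuclear receptor ERR alpha, had -0.32 next to -0.52. Klf15, another regulator of the list, had -0.42 (-0.85 to 0.02) next to -0.94. Among 20 metabolic regulators 1 had an unadjusted p below 0.05, and the median was -0.03, or 0.09 without Sham-NT 3 and 0.04 without TAC-BacNav 3. Citrate cycle genes had a median of -0.20 with 2 of 18 at an unadjusted p below 0.05, among them Suclg1 at -0.47, a subunit of succinyl-CoA ligase. The citrate cycle median was -0.12 without Sham-NT 3 and -0.13 without TAC-BacNav 3, and the 2 were 5 without TAC-BacNav 1 and 1 without Sham-NT 2, TAC-BacNav 3 or TAC-BacNav 4. Glucose metabolism genes had a median of -0.08, with 6 of 30 lower and 1 higher at an unadjusted p below 0.05. The 6 were 1 without TAC-BacNav 4, 2 without Sham-NT 4 or TAC-BacNav 3 and 3 without Sham-NT 2, and the 1 was 4 without Sham-NT 3 and 2 without TAC-BacNav 1. Pfkfb1, which sets the level of the activator of glycolysis, had -1.21 ± 0.35 next to -2.45, with Apex2 overlapping it on the opposite strand.

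**Figure D4:**
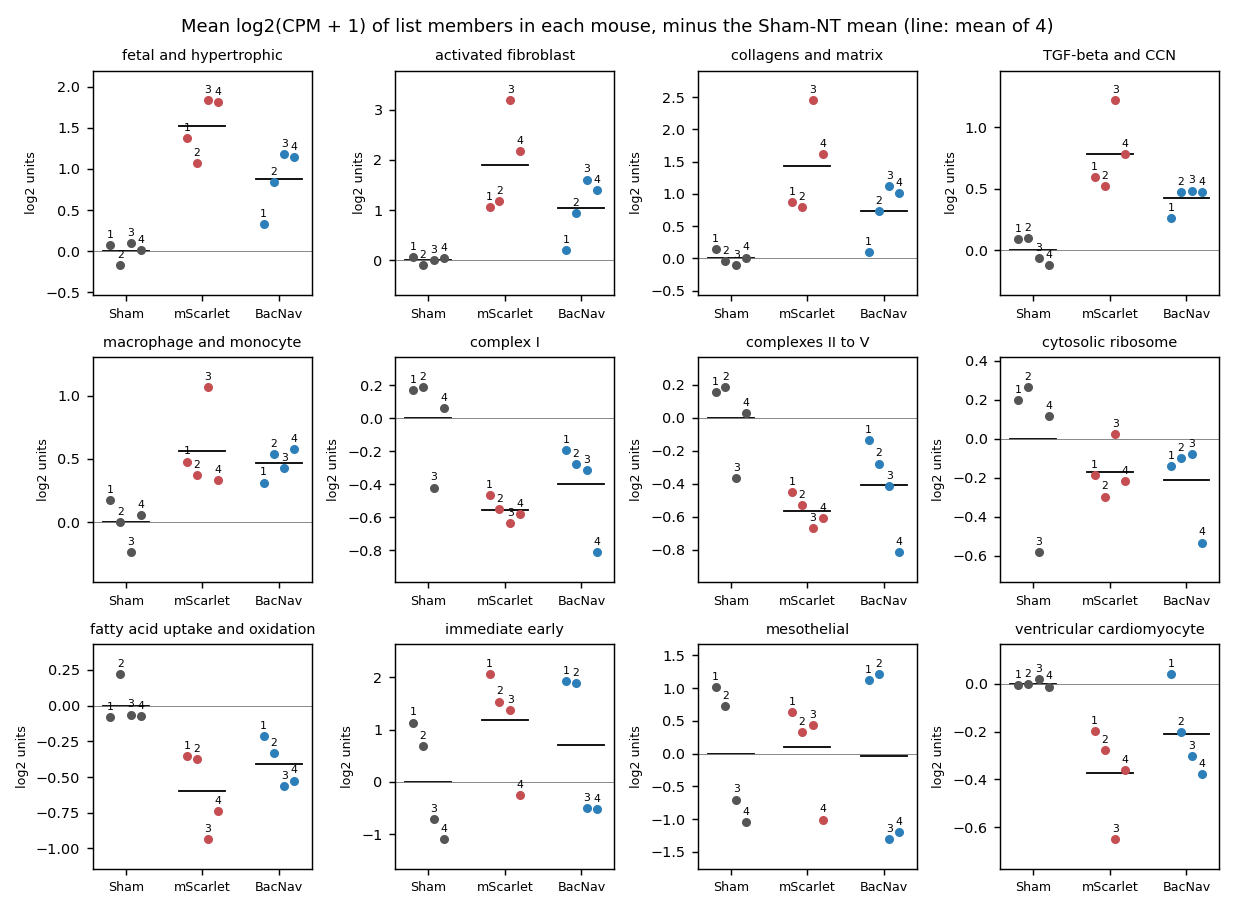
Mean log2(CPM + 1) of list members in each mouse, minus the Sham-NT mean; numbers mark the mouse and lines the mean of 4. TAC-BacNav 1 lies near sham for fetal (0.33), activated fibroblast (0.20) and collagen genes (0.10), Sham-NT 3 is low for complex I (-0.42) and ribosomal genes (-0.58), and immediate early genes split every group.

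Over all libraries no gene of calcium, sodium or potassium handling passed against sham by edgeR, and their medians lay between -0.24 and 0.02. Atp2a2, the SERCA2 pump that refills the sarcoplasmic reticulum, stood at 13826, 11370.1, 10952 and 12164 CPM against 14039.9, 16035, 15742 and 14318 CPM in sham. The groups did not overlap, but the highest TAC-BacNav mouse and the lowest sham mouse were nearly equal, and the log2 fold change of -0.32 ± 0.15 (-0.63 to 0.00) had an adjusted p of 0.454 in the edgeR test. It was -0.62 in TAC-mScarlet, a direct difference of 0.30 (-0.02 to 0.62). Ryr2, the calcium release channel, had -0.46 (-0.87 to -0.04) next to -0.65, and Pln, phospholamban, which restrains the pump, -0.19 (-0.52 to 0.13) next to -0.31. Slc8a1, the sodium-calcium exchanger, had 0.05 (-0.21 to 0.31), and Camk2d, the main cardiac CaM kinase, -0.14 (-0.36 to 0.08). Cacna1g, a T-type calcium channel, stood at 7.44, 7.12, 8 and 6.08 CPM against 11.1, 8.59, 10.2 and 12 CPM, a log2 fold change of -0.56 next to -0.28. Of 32 calcium handling genes tested, 5 had an unadjusted p below 0.05, all lower, with a median of -0.12. The 5 were 1 without TAC-BacNav 2 or TAC-BacNav 4 and 2 without Sham-NT 2 or TAC-BacNav 3, and 2 were higher without Sham-NT 3 or TAC-BacNav 3.

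Among 22 endogenous genes of sodium channels and transport, 1 was higher and 2 were lower at an unadjusted p below 0.05, and the median was 0.02. The 2 were 5 without TAC-BacNav 1 and 1 without TAC-BacNav 4, and the 1 was 2 without Sham-NT 3 or TAC-BacNav 1. Potassium channels had a median of -0.24, with 3 of 24 lower at an unadjusted p below 0.05. The 3 were 6 without TAC-BacNav 1 and 1 without Sham-NT 3 or TAC-BacNav 3, and the median ran from -0.31 to -0.11, the last without Sham-NT 3. Kcnv2, a silent potassium channel subunit, stood at 22.8, 14.8, 14.4 and 9.21 CPM against 47.4, 44.9, 26.1 and 36.1 CPM without overlap, a log2 fold change of -1.34 ± 0.40 next to -1.89. Gja1, connexin 43 of the gap junction, had -0.01 (-0.50 to 0.49).

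Sarcomere genes had a median of -0.10, with 3 of 25 higher and 5 lower at an unadjusted p below 0.05. The 5 were 2 without Sham-NT 2 or TAC-BacNav 4 and 3 without Sham-NT 4, TAC-BacNav 2 or TAC-BacNav 3, and the 3 were 5 without Sham-NT 3. Tnni3, cardiac troponin I, had -0.57 ± 0.18 next to -0.93 in TAC-mScarlet, and Tnnt2, cardiac troponin T, -0.37 ± 0.13 next to -0.48. Myom3, an M-band protein, stood at 6.28, 6.76, 5.07 and 7.4 CPM against 4.56, 3.32, 4.01 and 2.56 CPM, a log2 fold change of 0.82 ± 0.26 next to 1.14. The 14 ventricular muscle markers had a median of -0.19 with 5 lower at an unadjusted p below 0.05, or 2 without Sham-NT 2, TAC-BacNav 2 or TAC-BacNav 4 and 3 without Sham-NT 1, Sham-NT 4 or TAC-BacNav 3. The sum given above was lowest in TAC-BacNav 4 and highest within its group in TAC-BacNav 1.

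Macrophage and monocyte markers were higher in point value for 18 of 19 genes tested, 7 with an unadjusted p below 0.05, and had a median of 0.41 next to 0.51 in TAC-mScarlet. Ccr2, the chemokine receptor of recruited monocytes, stood at 9.07, 13.2, 9.47 and 15.2 CPM against 3.37, 4.49, 2.98 and 5.45 CPM in sham. All 4 TAC-BacNav mice were above sham, and TAC-mScarlet mice (8.36, 7.7, 19.3 and 4.06 CPM) spread across both. The log2 fold change was 1.53 ± 0.40 (adjusted p 0.345, edgeR), next to 1.29. Adgre1, the macrophage antigen F4/80, stood at 18.8, 20.6, 19.6 and 21.7 CPM against 16.7, 11.5, 12.6 and 11.4 CPM without overlap, a log2 fold change of 0.64 ± 0.17 next to 0.87. The summed level of the list was 949.9 to 1101 CPM in TAC-BacNav and 695 to 861 CPM in Sham-NT. Without any 1 mouse, 5 to 7 markers had an unadjusted p below 0.05.

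Endothelial markers had a median of 0.23, with 2 of 14 higher at an unadjusted p below 0.05, and smooth muscle and pericyte markers 0.13 with 0 of 13. The 2 endothelial markers were 4 without Sham-NT 3 or TAC-BacNav 1 and 1 without Sham-NT 2, TAC-BacNav 3 or TAC-BacNav 4. The 5 B cell markers tested of 12 all had log2 fold changes above 0, with a median of 0.89 next to 1.29 in TAC-mScarlet and 1 at an unadjusted p below 0.05, or 0 without Sham-NT 2, Sham-NT 3, TAC-BacNav 2 or TAC-BacNav 3. Their mean log2(CPM + 1) relative to the sham mean was 0.12, 1.07, 0.76 and -0.11 in TAC-BacNav mice 1 to 4, so that mice 2 and 3 were high. Counts were few: Cd79b, the median gene, rested on 1 to 6 counts in Sham-NT and 6 to 17 in TAC-BacNav libraries. The B cell genes Cd79a and Ms4a1 fell below the count filter. Mesothelial markers, which line the surface of the heart, summed to 110 and 147 CPM in Sham-NT 2 and 1 and 142 and 150 CPM in TAC-BacNav 1 and 2, but to 19 to 32 CPM in the other 4 mice. Too few T cell, adipocyte and Schwann cell markers were tested to describe those cells.

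On either side of the immediate early split the calls differed. Each side set only 2 TAC-BacNav mice against 2 Sham-NT mice. Spread estimated from so few libraries is uncertain, so calls on a side are not comparable with those over all libraries. Within Sham-NT 1 and 2 and TAC-BacNav 1 and 2, fitted with TAC-mScarlet 1 to 3, edgeR called 4 genes: Egr1, an immediate early gene like those that defined the split, Xirp1, Ndufb2 and Etfb. Within Sham-NT 3 and 4 and TAC-BacNav 3 and 4, fitted with TAC-mScarlet 4, it called 34, of which 25 were higher. Fos, Egr1, Etfb, Ltbp2 and Thbs4 lie outside the naming rule and were chosen after their values were seen. The 34 included Acta1 (log2 fold change 4.56, adjusted p 0.000593), Nppa (2.46), Postn (2.46), Cilp (3.32), Col8a1 (1.96), Ltbp2 (2.82), Thbs4 (2.61), Nppb (1.86) and Ccn2 (1.46), with Rgs2 (-1.68) among the 9 lower. On the side that held TAC-BacNav 1 and 2, the values were 2.62 for Acta1, 1.80 for Nppa, 1.15 for Postn and 1.94 for Cilp. Ankrd1 was 1.50 there and 1.80 on the other side, and passed on the second only. The test of the difference between the 2 sides called none of 13910 genes by edgeR, with 829 at an unadjusted p below 0.05 and a smallest adjusted p of 0.809, so these genes were not shown to differ between sides. Kcnj3, a subunit of the acetylcholine-regulated potassium channel that also lies outside the naming rule and was chosen after its values were seen, was lower on the low side (log2 fold change -1.25, adjusted p 0.0383, edgeR).

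Gene lists also had different values on the 2 sides, and the difference was not tested for any list. Over all genes, 802 were higher and 994 lower at an unadjusted p below 0.05 on the high side (12.6% of 14208). On the low side 712 were higher and 628 lower (9.39% of 14278). Collagen and matrix genes had a median of 1.03 on the low side, with 30 of 36 higher at an unadjusted p below 0.05 and 6 passing, and of 0.29 on the high side, with 0 and 0. Activated fibroblast genes had 1.68 on the low side, with 11 higher, 1 lower and 6 passing, and 0.74 on the high side, with 1 higher and 0 passing. The fetal list had 0.83 with 14 higher on the low side and 0.51 with 4 higher on the high side. Matrix processing genes had 0.54 with 13 higher on the low side, and 0.07 with 3 higher and 2 lower on the high side. The TGF-beta list had 0.47 with 11 higher and 0.24 with 4 higher. For macrophage markers the values were 0.43 with 8 higher and 0.40 with 4 higher. Immediate early genes, the kind that defined the split, had 0.29 with 4 higher on the low side and 0.92 with 10 higher on the high side. Over all libraries all 21 of them were above 0, with a median of 0.78 next to 1.13 in TAC-mScarlet. At an unadjusted p below 0.05, 2 were higher, or 13 with the side as a term, and the median ran from 0.30 to 1.35 without 1 library. Because genes of this kind defined the sides, a side term takes up their spread in advance. No conclusion is drawn from the 13. Over all genes, 1006 were higher at that threshold with the side term and 806 without it.

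The respiratory chain ran the other way in its counts. Sham-NT 3 and TAC-BacNav 4, which stood apart for these genes, both lie on the low side, and their part in the counts was not tested. Lower complex I genes at an unadjusted p below 0.05 numbered 25 on the high side and 1 on the low side, although the medians were -0.42 and -0.41. For complexes II to V the counts were 24 and 6, with medians of -0.44 and -0.47. Fatty acid genes had 7 lower on the high side and 17 on the low side, with medians of -0.27 and -0.49. Ribosomal genes had 15 lower on the high side and 0 on the low side, with medians of -0.34 and -0.10. Medians of the citrate cycle were 0.05 on the high side and -0.41 on the low side, and those of glucose metabolism 0.02 and -0.23. The medians of metabolic regulators were 0.13 and -0.13. Potassium channels had 0.19 on the high side, with 1 higher and 1 lower, and -0.59 on the low side, with 10 lower. Mesothelial markers had 0.40 and -0.77, and B cell markers 0.62 and 1.17.

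Without TAC-BacNav 1 over all other libraries, edgeR called 15 genes, 13 of them higher, including Acta1 (log2 fold change 4.37, adjusted p 0.0120), Mybpc2 (1.13), Crispld2 (0.76), Abat (1.07), Tnfrsf1b (0.93) and, lower, Egflam (-1.07). Without any other 1 of the 8 libraries it called 0 or 1. The single gene was Ier5 without TAC-BacNav 4, and there was 1 without Sham-NT 2. In the 5 fits with 0 calls between 1116 and 2472 genes had an unadjusted p below 0.05.

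**Figure D5:**
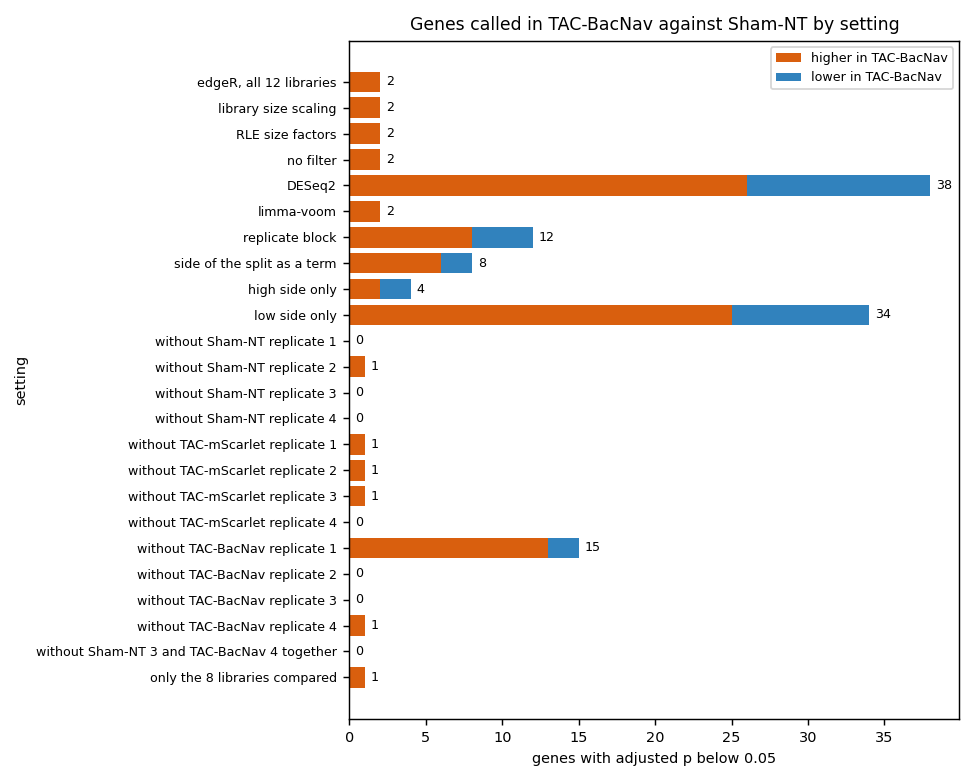
Number of genes with an adjusted p below 0.05 in TAC-BacNav against Sham-NT under each setting, split into higher (orange) and lower (blue). Most settings give 0 to 4 calls, against 38 with DESeq2, 34 on the side of the split low in immediate early genes and 15 without TAC-BacNav 1.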

How the data were processed

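RNA from snap-frozen ventricles was sequenced as read pairs, per the labels' protocols. The authors deposited whole-number read counts per gene, 1 file per mouse, made with HISAT2 and featureCounts per the submitters' processing notes. The sources used here give neither versions nor the strand setting. The notes name GRCh38, but the identifiers are mouse Ensembl genes, and 14474 of the 14957 versioned identifiers are in GENCODE vM21 (GRCm38), or 14946 when versions are ignored. No listed gene was at 0 in more than 6 of the 12 libraries. Counts were tested as deposited with edgeR 4.0.16 (R 4.3.3): filterByExpr left 13910 genes and removed 1047, TMM scaling, 1 robust quasi-likelihood model over all 12 libraries, two-sided, Benjamini-Hochberg, called below 0.05, tested on simulated data. SE is the fold change divided by the root of F. Alternatives used DESeq2 1.42.0, limma 3.58.1, other scaling, filters and subsets. Named genes were 20 anchors, up to 15 per direction by call or smallest p without overlap, and up to 4 called or 2 smallest-p members of each of 44 lists. Members and lists were chosen with earlier results of these data known. Labels number separate mice, and every pair of libraries within a group differed beyond counting noise (chi-square over degrees of freedom at least 5.35). A few genes, 1 called gene among them, are not reported here. Promoter stretches came from RefSeq.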

Additional observations from a re-analysis of the deposited data

Results flagged for a closer look

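The level of 124 named genes was examined in both groups for a mouse set apart from the other 3, by the gap to the nearest mouse as a share of the group's range. Of 248 groups, 16 exceeded Dixon's 95% critical value for 4 samples, and chance alone would flag about 1 in 20. The 16 are thus not far above the number from chance alone, and the single values are given as description only. Among sham mice, 5 of the 8 such values belonged to Sham-NT 3, and among TAC-BacNav mice 4 of 8 to TAC-BacNav 4 and 3 to TAC-BacNav 1.

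In Sham-NT 3, Cox7a1 of respiratory complex IV was low (757 CPM against 1228 CPM in the nearest mouse, share 0.88). Rgs2 was low there by a small amount (67.8 CPM against 75.1 CPM in the nearest mouse, share 0.841), as was Itgb8 (0.776 CPM against 0.961 CPM in the nearest mouse, share 0.861). Xirp1 was high (199 CPM against 134 CPM in the nearest mouse, share 0.927), and so was Col8a1 (41.4 CPM against 34.9 CPM in the nearest mouse, share 0.87). In Sham-NT 1, Nppb was high (575 CPM against 249.7 CPM in the nearest mouse, share 0.915) and the clock repressor gene Bhlhe41 low (18 CPM against 38.1 CPM in the nearest mouse, share 0.884). In Sham-NT 4, Stmn4 was high (2.72 CPM against 1.59 CPM in the nearest mouse, share 0.838).

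TAC-BacNav 1 was the sham-like end of its group for Col1a1 (60.7 CPM against 120.3 CPM in the nearest mouse, share 0.861), for Egflam (24.9 CPM against 16.5 CPM in the nearest mouse, share 0.834) and for Cacnb2, a calcium channel beta subunit (97.4 CPM against 55.5 CPM in the nearest mouse, share 0.877). TAC-BacNav 4 was low for the superoxide dismutase gene Sod1 (250.4 CPM against 371 CPM in the nearest mouse, share 0.849), for Maf1 (82.1 CPM against 93.1 CPM in the nearest mouse, share 0.944) and for the chaperone gene Dnajb1 (33.7 CPM against 42.2 CPM in the nearest mouse, share 0.93), and high for the interferon-induced Ifit2 (36.6 CPM against 26.9 CPM in the nearest mouse, share 0.839). TAC-BacNav 3 was low for the potassium channel gene Kcnj2 (31.6 CPM against 38.6 CPM in the nearest mouse, share 0.858).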

How the results depend on the processing

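Ankrd1 passed with library size scaling, RLE size factors, no count filter and limma-voom, which called 2 genes each, and with DESeq2 (38 calls), the replicate block (12) and the side of the split as a term (8). The side high in immediate early genes gave 4 calls, the low side 34 and the 8 compared libraries alone 1, which was Ankrd1. Leaving out 1 library of the comparison gave 0 to 15 calls. Settings chosen after seeing the data gave 0 or 1 without 1 TAC-mScarlet mouse and 0 without Sham-NT 3 and TAC-BacNav 4 together, where 1559 genes had an unadjusted p below 0.05. The cause of these shifts was not tested.

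For genes changed in TAC-mScarlet against Sham-NT, the 719 calls became 1371 with DESeq2, 475 with limma-voom, 1459 with the side term, 96 on the low side and 14 to 1055 without 1 library. Dropping sham mouse 2, 4 or 1 left 14, 20 or 256 calls, and dropping TAC-mScarlet mouse 3 or 4 left 97 or 228. Between the constricted groups the calls were 5 with DESeq2, 6 with the replicate block, 2 on the high side and 1 with only the 8 libraries compared, in place of 0.

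Deviations from the group mean correlated at 0.149, 0.210, -0.233 and 0.122 between same-numbered Sham-NT and TAC-BacNav mice. Sham-NT mice 1, 2, 3 and 4 correlated best with TAC-BacNav mice 2, 1, 4 and 3, so none with its own number. With so few mice these values cannot tell whether the numbers stand for a pairing or a shared order. Of 128 named genes, 117 kept their sign in every alternative fitted. List medians moved beyond the spread between mice in 47 values and did not in 965. Of the 47, 13 arose on the high side, 12 on the low side and 8 with library size scaling. Depth limits low genes: Itgb8 rested on 5 to 6 counts in the Sham-NT libraries.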

Other observations

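A few genes differed from sham in TAC-BacNav more than, or opposite to, TAC-mScarlet in point value, and none passed by edgeR. DESeq2 called Bdh1 against sham. Bdh1, which interconverts ketone bodies, stood at 173, 230.4, 314 and 330.3 CPM in TAC-BacNav, 123, 131, 191 and 118 CPM in Sham-NT and 202, 166, 153 and 259.8 CPM in TAC-mScarlet. Its log2 fold change against sham was 0.89 ± 0.22 next to 0.47, a direct difference of 0.43 (-0.04 to 0.89), with overlap through Sham-NT 3. Igtp, an interferon-inducible GTPase, stood at 39.1, 29.9, 62.6 and 34.1 CPM against 36.3, 20.5, 19.3 and 23.9 CPM in sham and 17, 16.5, 20.7 and 12.4 CPM in TAC-mScarlet. Its direct difference of 1.31 (0.79 to 1.83) had an adjusted p of 0.78 in the edgeR test, and Irgm2 shares its exons. Tnnt3, fast skeletal troponin T, was low, at 0.698, 0.845, 0.667 and 0.74 CPM in TAC-BacNav against 1.39, 1.95, 1.55 and 1.28 CPM in sham.

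Cell cycle genes had a median log2 fold change of 0.28 next to 0.26 in TAC-mScarlet, with 5 of 19 higher at an unadjusted p below 0.05. The 5 were 0 without TAC-BacNav 4, 1 without Sham-NT 2 and 3 without Sham-NT 4. In those fits the share of all genes higher was 3.20%, 3.79% and 4.28%, against 5.79% over all libraries. Among the 5 were Ccnd2 (0.51 ± 0.18) and Ccnd1 (0.71 ± 0.27), D-type cyclins. Interferon-induced genes had a median of 0.12 with 4 of 27 higher, or 2 without TAC-BacNav 4, and of 0.03 without Sham-NT 3 or TAC-BacNav 3. They included Ifit2 at 0.54 ± 0.18 next to 0.71. Complement genes had a median of 0.30, with 3 of 15 higher and 1 lower, the last being Cd59a, an inhibitor of the membrane attack complex, at -0.35 ± 0.12. The 3 were 0 without Sham-NT 1 or TAC-BacNav 4 and 1 without Sham-NT 3 or Sham-NT 4. Of 18 genes of cell death and survival 3 were higher, among them Bcl2 at 18.5, 12.9, 18.3 and 23.8 CPM against 9.52, 9.57, 11 and 10.9 CPM in sham without overlap, a log2 fold change of 0.84 ± 0.23 next to 1.40. Ednrb, an endothelin receptor, had 0.63 ± 0.19 next to 0.86. Vegfc, the lymphatic growth factor, stood at 14, 18.5, 14.7 and 15.5 CPM against 10.5, 11.3, 7.51 and 8.65 CPM without overlap, a log2 fold change of 0.73 ± 0.20 next to 0.88. None of these genes had an adjusted p below 0.05 in TAC-BacNav against Sham-NT by edgeR over all libraries. Bcl2, Bdh1, Ccnd1 and Ccnd2 have an antisense partner on shared exons.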
